A study of Mus with 6 samples.

Results

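The genes described here are 10 genes through which endothelial cells of the heart take up fatty acids, chosen by name as Cd36, Fabp4, Fabp5, Lpl, Gpihbp1, Meox2, Tcf15, Pparg, Slc27a3 and Aqp7. All 10 were found among the 20893 genes of the table. They were measured by RNA sequencing in 3 libraries from Ccl28 knockout (KO) mice and 3 libraries from wild-type (WT) mice, each with the replicate numbers 2, 3 and 4. All 6 libraries came from cardiac microvascular endothelial cells, taken with magnetic beads as CD45-negative and CD31-positive, and the left coronary artery of all mice had been ligated, a surgical model of myocardial infarction. The labels give no strain, sex, age or time after surgery, and they do not say in which cells the gene was deleted or whether animals were pooled. Nor do they state that the replicates come from different animals. All p-values therefore reflect the spread between these libraries, which may be technical. The genotype field of KO replicates 3 and 4 names Ccl29 and Ccl30, against their titles, which were followed.

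The heart burns mostly fatty acids, which reach its muscle cells across the capillary endothelium. Lipoprotein lipase, made by the cells of the tissue, is carried to the capillary lumen by the endothelial protein GPIHBP1, where it splits the triglycerides of lipoproteins. The released fatty acids enter endothelial cells through CD36 and fatty acid transport proteins and are carried in the cytosol by fatty acid binding proteins. The transcription factors MEOX2 and TCF15 form a heterodimer that drives Cd36 and lipoprotein lipase expression in heart endothelium of the mouse, and PPARγ activates many of these genes.

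Ccl28 had 0 reads in each of the 3 KO libraries, against 16, 11 and 24 reads in WT replicates 2, 3 and 4. The libraries held 36004457 to 37780513 recovered reads in KO and 39104282 to 40500067 in WT. Each member had between 544 and 340898 reads per library, so counting error was small beside the differences between libraries. Of 10 pan-endothelial markers, all of which passed the expression filter, 2 rose and 4 fell, and their summed level was 3829.8 to 4151.8 FPKM in KO and 4100.7 to 4181.3 FPKM in WT. Across all tested genes 18.3% rose and 25.8% fell. Both higher calls among these markers were lost when a trend with transcript length was removed (3 lower). They were also lost under quantile normalization (7 lower, median log2 fold change -0.44). Of all tested genes 10.6% were lower with the length trend removed and 21.8% under quantile normalization. FPKM is a fragment count scaled to transcript length and library size, and so a level per length. Comparisons between genes of unlike length also carry any trend with length in a library.

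Fabp4 was the most abundant member in all 6 libraries, and ranked between 4 and 5 of the 20893 genes in KO libraries and between 4 and 6 in WT libraries. Gpihbp1 followed, then Cd36, Fabp5 and Tcf15, in the same order in both genotypes and with no overlap between neighbours in this order. In KO libraries Aqp7, Meox2 and Lpl came next with overlapping ranges. In WT libraries Lpl lay above Meox2 with no overlap, and the ranges of Meox2 and Aqp7 overlapped. Pparg and Slc27a3 were the lowest members in both genotypes. All 10 members reached 1 FPKM in all 6 libraries and so passed the filter of the test whatever the genotype. The lowest value of any member was 3.12 FPKM, of Slc27a3 in WT replicate 3.

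**Figure D1:**
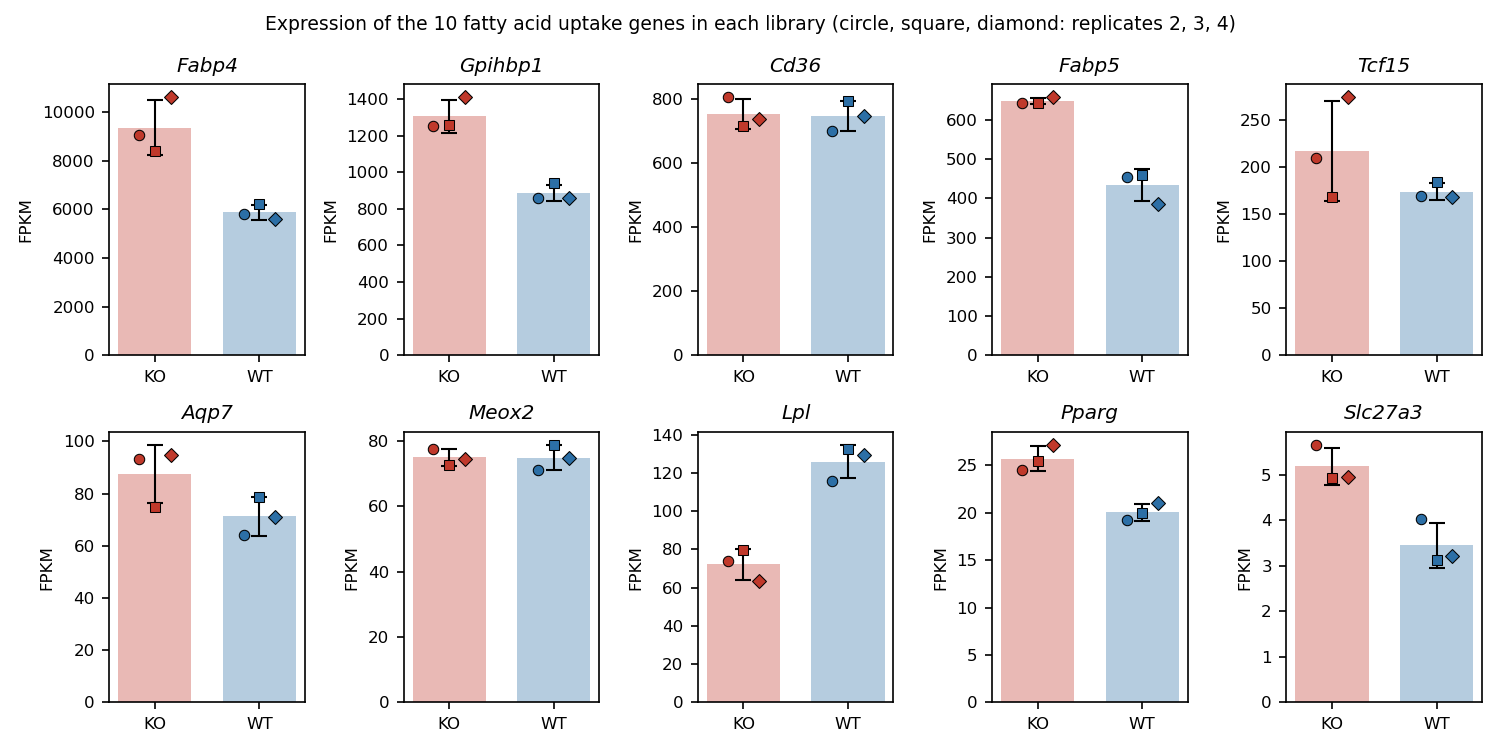
FPKM of each member in KO (red) and WT (blue) libraries; bars are means, error bars are SD (n = 3 per genotype) and points are single libraries. Lpl is the member whose 3 KO libraries all lie below the WT libraries, at 63.3 to 79.5 FPKM against 115.9 to 132.5 FPKM.

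The comparison of KO with WT asks how transcripts of infarcted heart endothelium differ when Ccl28 is missing. Within this pathway the genes moved apart: 6 of the 10 members rose (Fabp4, Fabp5, Gpihbp1, Pparg, Slc27a3 and Aqp7), Lpl fell, and Cd36, Meox2 and Tcf15 did not pass the test. The test was limma on log2(FPKM + 1) over 10806 genes, with a Benjamini-Hochberg adjusted p under 0.05. In it 44.2% of all tested genes passed, with 18.3% higher in KO and 25.8% lower. The median log2 fold change was 0.32 over the 10 members and -0.03 over all tested genes. Without overlap between the genotypes, 5 members were higher and 1 was lower in KO, where 54.7% of all tested genes did not overlap, 22.8% being higher and 31.9% lower. In these sorted preparations, fewer cells of a type and less RNA per cell cannot be told apart.

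Transcript length has to be read beside these counts. Genes with short transcripts were mostly higher and genes with long transcripts mostly lower in KO, across the whole table. After removal of a length trend from each library, 2 members rose (Pparg and Slc27a3) and 1 fell (Lpl), where 17.1% of all tested genes passed, 6.47% higher and 10.6% lower. The calls of Fabp4, Fabp5, Gpihbp1 and Aqp7 were lost. The same 3 members passed when each library was then centred on its median gene, where 18.9% of all tested genes passed, 9.42% higher and 9.48% lower. Quantile normalization, which gives all libraries one distribution of levels, called Fabp5, Pparg and Slc27a3 higher and Lpl and Cd36 lower, where 42.3% of all tested genes passed, 20.4% higher and 21.8% lower. With limma-voom on the recovered reads the 7 calls were those of limma, where 47.3% of all tested genes passed, 22.4% higher and 24.9% lower.

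Lpl encodes lipoprotein lipase, the enzyme that frees fatty acids from circulating triglycerides. It had 73.7, 79.5 and 63.3 FPKM in KO replicates 2, 3 and 4, against 115.9, 132.5 and 129.5 FPKM in WT replicates 2, 3 and 4. All 3 KO libraries lay below all 3 WT libraries, and KO replicate 4 was the lowest. The mean was 72.1 ± 8.21 FPKM in KO and 125.9 ± 8.84 FPKM in WT (SD, n = 3 each), a 1.75-fold lower level in KO. The log2 fold change was -0.80 (SE 0.09, adjusted p = 0.000518). Removal of the length trend gave -0.71 (adjusted p = 0.00202), and Lpl passed as lower with each library left out in turn. Its rank among all genes was 837 to 1067 in KO libraries and 420 to 528 in WT libraries. The gene (ID 16956) is on chromosome 8, between 68880555 and 68906932 (GRCm38, as for all positions here).

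Gpihbp1 encodes the GPI-linked protein of capillary endothelium that binds lipoprotein lipase and shuttles it to the lumen. Its level was 1249.3, 1258.4 and 1408.3 FPKM in KO replicates 2, 3 and 4, against 860.0, 938.4 and 858.3 FPKM in WT replicates 2, 3 and 4. Every KO library was above every WT library. The means were 1305.3 ± 89.3 FPKM in KO and 885.6 ± 45.8 FPKM in WT (SD, n = 3 each), with a log2 fold change of 0.56 (SE 0.09, adjusted p = 0.0011). The enzyme gene fell and the carrier gene rose in this fit. The call of Gpihbp1 was lost after removal of the length trend (log2 fold change 0.10, adjusted p = 0.321) and under quantile normalization (0.01, adjusted p = 0.908). The gene (ID 68453) lies on chromosome 15 from 75596630 to 75598213.

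The relation of Lpl to the other genes was also measured as a ratio within each library, which a common scaling of that library's values does not move. Gpihbp1 FPKM was 16.9, 15.8 and 22.3 times Lpl FPKM in KO replicates 2, 3 and 4, and 7.42, 7.08 and 6.63 times in WT replicates 2, 3 and 4. The log2 ratio of Lpl to Gpihbp1 was -4.18 ± 0.26 in KO and -2.81 ± 0.08 in WT (SD, n = 3 each), a difference of -1.37. In an exact permutation test (two-sided) p was 0.1, and 3 against 3 libraries cannot give a smaller one. The difference was -0.81 with the length trend removed. Lpl and Cd36 have nearly equal implied transcript lengths, 4049 and 4057 nt, and this pair was chosen after the values were seen. Their log2 ratio was -3.39 ± 0.19 in KO and -2.57 ± 0.03 in WT (SD, n = 3 each), and the difference of -0.82 was -0.81 with the length trend removed (exact permutation p = 0.1 in both). Removal of a length trend can hardly move a ratio of genes of equal length, so the second value adds no further result. Cd36 itself had a log2 fold change of 0.01, so this ratio mostly restates the difference of Lpl. In both ratios the 3 KO libraries lay below the 3 WT libraries.

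**Figure D2:**
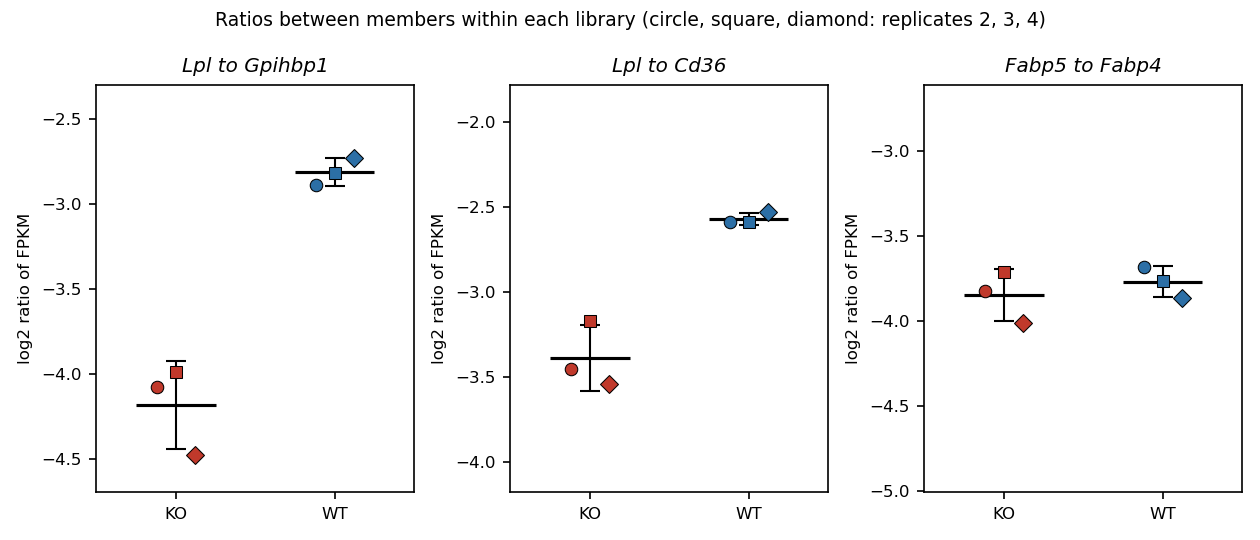
Log2 ratio of FPKM between pairs of members in each KO (red) and WT (blue) library; lines are means and error bars SD (n = 3 per genotype), and each panel spans the same number of log2 units. The ratios of Lpl to Gpihbp1 (-4.18 in KO, -2.81 in WT) and of Lpl to Cd36 (-3.39 in KO, -2.57 in WT) separate the genotypes, and the ratio of Fabp5 to Fabp4 overlaps.

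Cd36 encodes the scavenger receptor that takes up long-chain fatty acids at the cell surface. It had 805.4, 717.5 and 736.8 FPKM in KO replicates 2, 3 and 4, against 699.1, 795.1 and 747.7 FPKM in WT replicates 2, 3 and 4. The genotypes overlapped, with the highest value in a KO library and the lowest in a WT library. The means were 753.2 ± 46.2 FPKM in KO and 747.3 ± 48.0 FPKM in WT (SD, n = 3 each). The log2 fold change was 0.01, with a 95% interval from -0.18 to 0.20 (adjusted p = 0.923). With quantile normalization Cd36 passed as lower, at -0.42 (adjusted p = 0.00517). Cd36 (ID 12491) spans 17781690 to 17888959 of chromosome 5.

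Slc27a3 encodes a member of the fatty acid transport protein family, also called FATP3. It had 5.66, 4.93 and 4.95 FPKM in KO replicates 2, 3 and 4, against 4.02, 3.12 and 3.21 FPKM in WT replicates 2, 3 and 4. These values came from 796 to 955 reads in KO and 544 to 727 reads in WT, and the genotypes did not overlap. The log2 fold change was 0.48 (SE 0.11, adjusted p = 0.00601), and removal of the length trend gave 0.61 (adjusted p = 0.00685). Slc27a3 passed as higher in every setting that tested it; it lay under the filter at 5 FPKM. The gene (ID 26568) lies on chromosome 3 from 90385230 to 90390835.

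Fabp4 encodes the adipocyte-type fatty acid binding protein, which is also abundant in capillary endothelium. It had 9065.0, 8418.0 and 10614.3 FPKM in KO replicates 2, 3 and 4, against 5819.5, 6206.7 and 5607.4 FPKM in WT replicates 2, 3 and 4. The KO libraries were all above the WT libraries, and KO replicate 4 was the highest. The means were 9365.8 ± 1128.6 FPKM in KO and 5877.9 ± 303.9 FPKM in WT (SD, n = 3 each), with a log2 fold change of 0.67 (SE 0.13, adjusted p = 0.00276). Without the length trend the change was 0.23 (adjusted p = 0.116), and quantile normalization gave 0.12 (adjusted p = 0.46). Without an expression filter the log2 fold change stayed at 0.67 and the adjusted p was 0.143.

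Fabp5 encodes the epidermal-type fatty acid binding protein, which binds fatty acids in many tissues and in endothelium. It had 641.8, 644.1 and 657.3 FPKM in KO replicates 2, 3 and 4, against 453.9, 459.5 and 386.1 FPKM in WT replicates 2, 3 and 4. KO libraries varied little around their mean, with a coefficient of variation of 1.29% in KO and 9.43% in WT. The log2 fold change was 0.58 (SE 0.09, adjusted p = 0.000875). It was 0.16 after removal of the length trend (adjusted p = 0.161), and quantile normalization gave 0.19 (adjusted p = 0.0361). RefSeq annotates a Fabp5-like pseudogene on another chromosome, and how reads matching several places were counted is not given in the sources used here, so the level of Fabp5 is uncertain to that extent.

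The ratio of the 2 binding proteins showed no separation. Fabp4 FPKM was 14.1, 13.1 and 16.1 times Fabp5 FPKM in KO replicates 2, 3 and 4, and 12.8, 13.5 and 14.5 times in WT replicates 2, 3 and 4. The log2 ratio of Fabp5 to Fabp4 was -3.85 ± 0.15 in KO and -3.77 ± 0.09 in WT (SD, n = 3 each; exact permutation p = 0.6). Both genes lie on chromosome 3, Fabp5 (ID 16592) from 10012585 to 10016610 and Fabp4 (ID 11770) from 10204342 to 10208616.

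Meox2, a homeobox transcription factor gene of heart and muscle endothelium, had 77.7, 72.8 and 74.5 FPKM in KO replicates 2, 3 and 4, against 71.1, 78.9 and 74.7 FPKM in WT replicates 2, 3 and 4. The genotypes overlapped, and the log2 fold change was 0.00 with a 95% interval from -0.15 to 0.16 (adjusted p = 0.977). With the length trend removed it was -0.14, with an interval from -0.29 to 0.01 (adjusted p = 0.17). Meox2 (ID 17286) lies on chromosome 12 from 37108540 to 37179534.

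Tcf15, the gene of its basic helix-loop-helix partner, had 210.0, 168.3 and 274.5 FPKM in KO replicates 2, 3 and 4, against 170.0, 184.4 and 167.9 FPKM in WT replicates 2, 3 and 4. It varied most among the members in KO, with a coefficient of variation of 24.6%, against 5.17% in WT, and KO replicate 3 lay within the WT range. The log2 fold change was 0.29 (SE 0.15, 95% interval -0.03 to 0.62, adjusted p = 0.13). Without KO replicate 3 it was 0.463 and passed (adjusted p = 0.0117), while removal of the length trend gave -0.04 (adjusted p = 0.85). Tcf15 was higher by 0.377 on the log2 scale, with q = 0.0132, in the authors' deposited table. The gene (ID 21407) lies on chromosome 2 from 152143056 to 152149097.

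Pparg encodes PPARγ, a nuclear receptor for fatty acid ligands whose targets include Cd36, Fabp4 and Lpl. It had 24.5, 25.5 and 27.2 FPKM in KO replicates 2, 3 and 4, against 19.2, 20.0 and 21.0 FPKM in WT replicates 2, 3 and 4. No KO library reached down to the WT range. The means were 25.8 ± 1.35 FPKM in KO and 20.1 ± 0.921 FPKM in WT (SD, n = 3 each), and the log2 fold change was 0.35 (SE 0.07, adjusted p = 0.00489). It was also 0.35 without the length trend (adjusted p = 0.0124) and under quantile normalization (adjusted p = 0.00729). Pparg (ID 19016) lies on chromosome 6 from 115360879 to 115490404.

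Aqp7 encodes an aquaglyceroporin, a channel for the glycerol that lipolysis leaves behind. It had 93.4, 74.8 and 94.7 FPKM in KO replicates 2, 3 and 4, against 64.1, 78.7 and 70.9 FPKM in WT replicates 2, 3 and 4. The genotypes overlapped, since KO replicate 3 was below WT replicate 3. The log2 fold change was 0.29 (SE 0.11, adjusted p = 0.049), so the call was close to the threshold. It was lost without KO replicate 2 (adjusted p = 0.146), KO replicate 4 (adjusted p = 0.158), WT replicate 2 (adjusted p = 0.14) or WT replicate 4 (adjusted p = 0.113). Removal of the length trend left the size at 0.29 and also lost the call (adjusted p = 0.0885), as did a pseudocount of 0.1 (adjusted p = 0.0503), testing without a filter (adjusted p = 0.161) and quantile normalization (adjusted p = 0.21). Aqp7 (ID 11832) lies on chromosome 4 from 41033074 to 41048237.

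**Figure D3:**
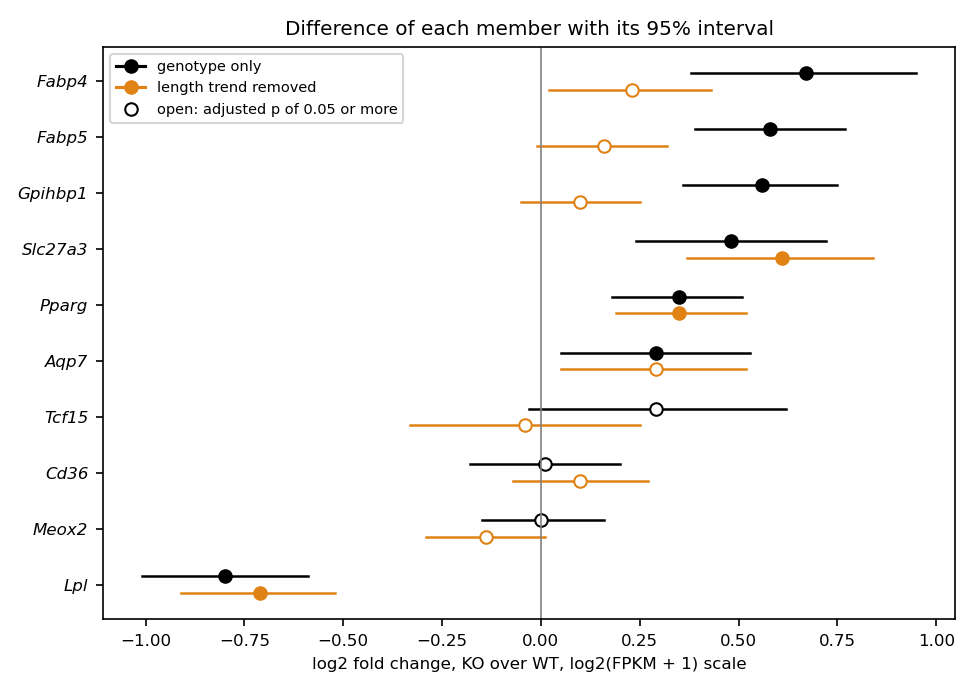
Log2 fold change of each member, KO over WT, with its 95% interval from limma; black is the fit with genotype only, orange the fit after removal of a length trend from each library, and open circles have an adjusted p of 0.05 or more. Pparg (0.35 and 0.35), Slc27a3 (0.48 and 0.61) and Lpl (-0.80 and -0.71) pass in both fits.

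The authors' deposited table, made with DESeq2 on counts, gave the same directions for the called members. In it 7 members were higher and 1 lower at q under 0.05, where 13.6% of 17686 genes were higher and 15.7% lower. The 7 were those named above and Tcf15. Fabp4 had a log2 fold change of 0.729 (q = 4.77e-14) and Lpl one of -0.744 (q = 3.72e-12) in the authors' deposited table.

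The members differed in length, and so in what the rest of the table did at that length. The tested genes were put into 5 length classes of nearly equal size. The shortest class, with transcripts up to 1791 nt, held Gpihbp1 (825 nt), Fabp4 (892 nt), Fabp5 (953 nt) and Tcf15 (1339 nt), and 59.8% of its 2162 genes rose (median 0.35 on the log2 scale). The third class, from 2867 to 4128 nt, held Aqp7 (3265 nt), Pparg (3384 nt), Lpl and Cd36. There 7.54% of genes rose and 16.1% fell, with a median of -0.05. Slc27a3 (4462 nt) was in the fourth class, where 2.82% rose and 40.8% fell. Meox2 (2360 nt) was in the second, where 20.4% rose and 4.4% fell. All these lengths are the ones by which FPKM was scaled, and the transcript made in these cells may be shorter. That of Slc27a3 is 4462 nt of a gene span of 5606 bp. Its class and its value after removal of the length trend are uncertain to that extent. Level ran beside length: of the 118 tested genes with a mean of at least 500 FPKM, 75.4% rose, with a median of 0.57 on the log2 scale. These include Fabp4, Gpihbp1, Cd36 and Fabp5. Genotype and the length trend cannot be told apart in these 6 libraries.

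**Figure D4:**
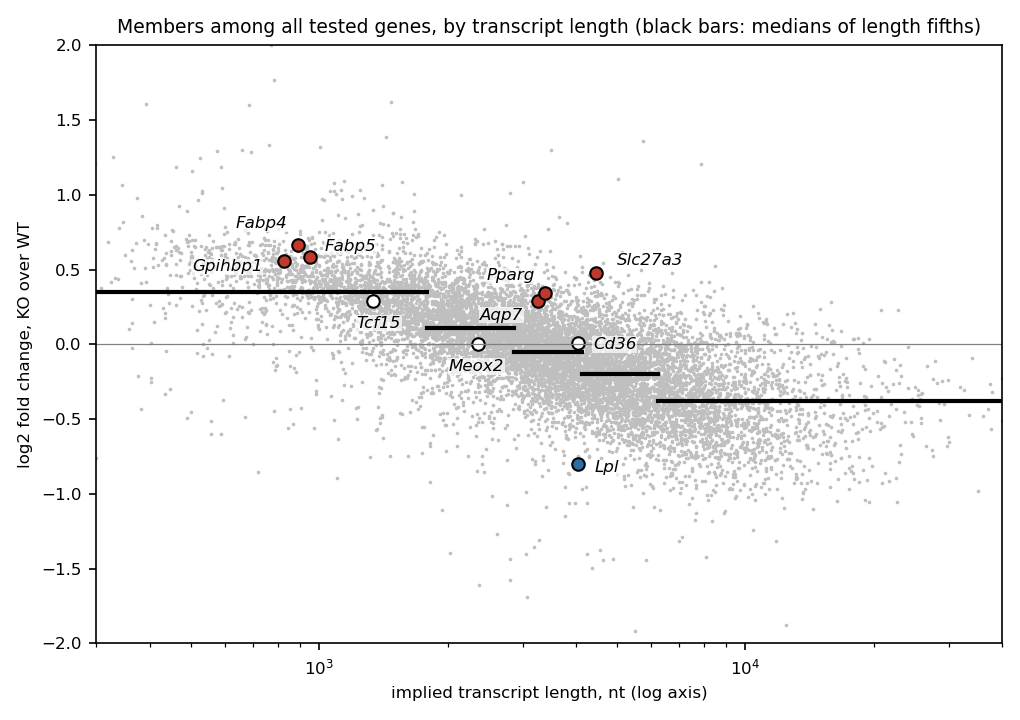
Log2 fold change, KO over WT, against implied transcript length (log axis) for 10783 tested genes (grey; 23 lie outside the axes), with the members marked red (higher), blue (lower) or white (not called) and black bars at the median of each length class. Fabp4, Fabp5 and Gpihbp1 lie at 0.56 to 0.67, where their length class has a median of 0.35. The tested genes with a mean of at least 500 FPKM, which include them, have a median of 0.57. Slc27a3 lies at 0.48, where the class of its implied length has a median of -0.20.

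Over the 6 libraries, the profile of Cd36 was most like that of Meox2 among the members (Pearson r = 0.977 of log2(FPKM + 1)). Fabp4 and Gpihbp1 were most like each other (r = 0.991). Pparg was closest to Gpihbp1 (r = 0.964), as was Fabp5 (r = 0.963). Slc27a3 was closest to Fabp5 (r = 0.909), and Tcf15 and Aqp7 to each other (r = 0.851). No member had an r with Lpl above 0.065, the highest value with its sign kept. Negative correlations were not ranked, so this does not make Lpl unrelated to members that rose where it fell. Among genes outside the list, the closest were Alpl for Cd36 (r = 0.990), Cox6a1 for Fabp4 (r = 0.999), Tmem214 for Fabp5 (r = 0.998) and Ndufa6 for Gpihbp1 (r = 0.997). They were also Hdac5 for Meox2 (r = 0.991), Lmo2 for Tcf15 (r = 0.996), Lat2 for Pparg (r = 0.994), Polr2m for Slc27a3 (r = 0.997) and Ctxn1 for Aqp7 (r = 0.993). These are the highest of all tested genes over 6 libraries that share the split by genotype, so high values arise by selection and they are given as a description.

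Further genes of fatty acid handling were read from 6 lists with 106 genes besides the members, of which 74 were tested. Of these 8 rose and 21 fell, or 10.8% and 28.4%, beside 18.3% and 25.8% of all tested genes, so the share that fell was near that of all genes. The median was -0.06 on the log2 scale. After removal of the length trend 4 rose and 12 fell, or 5.41% and 16.2%, beside 6.47% and 10.6% of all tested genes. The list of signals upstream of endothelial fatty acid transport had 7 of 13 tested genes lower, with a median of -0.52. Notch1, a receptor whose signalling maintains fatty acid transport in mouse heart endothelium, averaged 24.7 ± 3.38 FPKM in KO and 50.7 ± 4.62 FPKM in WT (log2 fold change -1.02, adjusted p = 0.000438). Insr, the insulin receptor gene, averaged 2.55 ± 0.0407 FPKM in KO and 5.41 ± 0.371 FPKM in WT, Nrp1, a co-receptor of VEGF-B, 57.8 ± 7.63 FPKM in KO and 114.2 ± 11.7 FPKM in WT, and the Notch ligand gene Dll4 95.8 ± 4.82 FPKM in KO and 147.2 ± 9.55 FPKM in WT (SD, n = 3 each). With the length trend removed 6 of the 13 passed as lower, with Notch1 at -0.66 and Dll4 at -0.60.

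The list of PPAR relatives and cofactors had 7 of 13 tested genes lower and 1 higher, with a median of -0.35. These are 53.8% and 7.69%, beside 25.8% lower and 18.3% higher of all tested genes. With the length trend removed 2 were lower and 0 higher, with a median of -0.16. The share lower was then 15.4%, beside 10.6% of all tested genes. The histone acetyltransferase gene Ep300 averaged 4.29 ± 0.138 FPKM in KO and 9.06 ± 0.567 FPKM in WT (SD, n = 3 each), and the corepressor gene Ncor1 averaged 7.54 ± 1.21 FPKM in KO and 13.3 ± 0.868 FPKM in WT. Crebbp, the gene of another histone acetyltransferase, also fell (log2 fold change -0.64). These 3 genes have long transcripts, of 8865 to 11484 nt, and with the length trend removed Ep300 and Ncor1 passed (-0.58 and -0.37) while Crebbp did not (-0.26, adjusted p = 0.0586).

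Of 18 tested targets of PPARs 3 rose and 0 fell, with a median of 0.10. These are 16.7% and 0%, beside 18.3% and 25.8% of all tested genes. With the length trend removed and under quantile normalization 0 also fell, where 10.6% and 21.8% of all tested genes did. The uncoupling protein gene Ucp2 averaged 165.6 ± 6.86 FPKM in KO and 118.4 ± 8.9 FPKM in WT (log2 fold change 0.48, adjusted p = 0.00114). The lipid droplet coat gene Plin2 had 0.27 (adjusted p = 0.0387) and the β-oxidation gene Acaa2 0.31 (adjusted p = 0.048). Plin2 lost its call without any 1 of KO replicates 2 and 4 and WT replicates 2, 3 and 4 (adjusted p = 0.0764, 0.126, 0.0539, 0.0963 and 0.0942). Acaa2 lost its call without KO replicate 2 or 4 or WT replicate 2 or 4 (adjusted p = 0.137, 0.163, 0.129 and 0.135). The carnitine carrier gene Slc25a20 had 0.22 (adjusted p = 0.0612), and 0.300 without KO replicate 3, where it passed (adjusted p = 0.0207). With the length trend removed Ucp2 had 0.22 (adjusted p = 0.0524), Plin2 0.21 and Acaa2 0.00, none of which passed. The β-oxidation gene Hadhb, named after its value was seen, was the single target higher in that fit (0.32, adjusted p = 0.042), and had 0.08 in the fit with genotype only (adjusted p = 0.477).

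In the list of lipolysis and lipoprotein uptake, 1 of 9 tested genes rose and 3 fell, with a median of -0.17. These are 11.1% and 33.3%, beside 18.3% and 25.8% of all tested genes. Sel1l, an endoplasmic reticulum protein gene needed for lipoprotein lipase to mature, averaged 10.4 ± 1.26 FPKM in KO and 17.2 ± 1.13 FPKM in WT (SD, n = 3 each), with a log2 fold change of -0.68 (adjusted p = 0.000825), and still fell after removal of the length trend (-0.42, adjusted p = 0.0138). Apoe, an apolipoprotein gene, averaged 222.2 ± 21.6 FPKM in KO and 151.7 ± 19.0 FPKM in WT and rose, and the lipoprotein receptor gene Lrp1 fell by 0.74 on the log2 scale (adjusted p = 0.00816). Without the length trend Apoe still passed (0.42) and Lrp1 did not (-0.32, adjusted p = 0.195). The lysosomal lipase gene Lipa fell by 0.33 on the log2 scale (adjusted p = 0.0231), a call lost without KO replicate 4, WT replicate 2 or WT replicate 4 (adjusted p = 0.0718, 0.0578 and 0.0806).

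In the list of fatty acid transport and activation, 2 of 13 tested genes rose and 2 fell, with a median of 0.05. Each is 15.4%, where 18.3% of all tested genes rose and 25.8% fell. Dbi, the acyl-CoA binding protein gene, averaged 101.1 ± 4.66 FPKM in KO and 62.1 ± 7.68 FPKM in WT (SD, n = 3 each). Zdhhc4, the gene of a palmitoyltransferase that acts on CD36, averaged 21.5 ± 1.29 FPKM in KO and 15.1 ± 0.98 FPKM in WT, and the acyl-CoA synthetase gene Acsl4 averaged 3.49 ± 0.492 FPKM in KO and 5.81 ± 0.341 FPKM in WT. Zdhhc5 fell by 0.31, a call lost without KO replicate 2 or 4 or WT replicate 2 or 4 (adjusted p = 0.0572, 0.11, 0.0959 and 0.0766). After removal of the length trend Zdhhc4 and Acsl4 passed and Dbi and Zdhhc5 did not.

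In the list of lipid droplet, triglyceride and glycerol genes, 2 of 13 tested genes rose and 2 fell, with a median of 0.05. Both shares were 15.4%, beside 18.3% higher and 25.8% lower of all tested genes. G0s2, an inhibitor of triglyceride lipase, averaged 2.62 ± 0.0985 FPKM in KO and 4.35 ± 0.689 FPKM in WT (log2 fold change -0.56, adjusted p = 0.00347; -1.01 without the length trend, adjusted p = 0.00168). The acyltransferase genes Agpat2 and Gpam had 0.51 and -0.45. Without the length trend neither passed, Agpat2 having 0.22 (adjusted p = 0.322) and Gpam -0.17 (adjusted p = 0.382), and G0s2 was the single gene of the list that did. Agpat2 no longer passed without KO replicate 2 (adjusted p = 0.0504), nor did Gpam without KO replicate 4, WT replicate 2 or WT replicate 4 (adjusted p = 0.0696, 0.0596 and 0.0552).

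**Figure D5:**
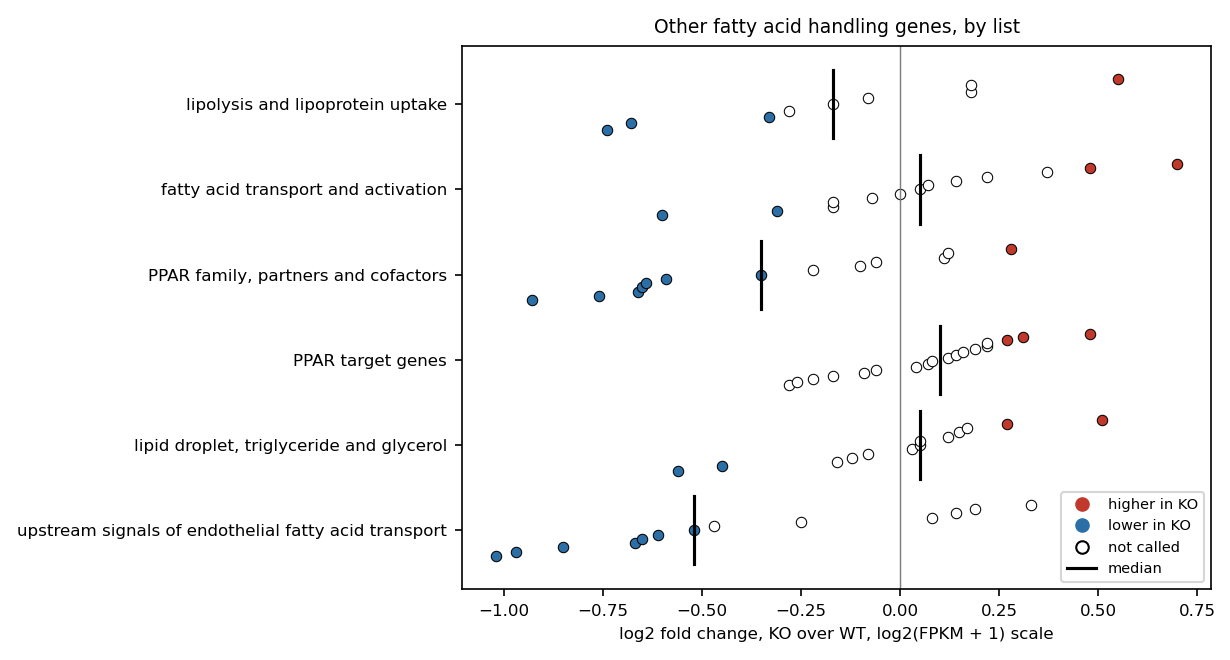
Log2 fold change, KO over WT, of the tested genes of 6 lists of fatty acid handling without the members; each circle is a gene, red higher, blue lower and white not called, and black lines are list medians. The upstream signals have the lowest median, -0.52, with 7 of 13 genes lower.

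Cell types other than endothelium also express several members, so their markers were read beside the results. Adipocytes share Fabp4, Cd36, Lpl, Pparg and Aqp7. Of 8 adipocyte markers in the table, Adipoq, Cidec, Retn, Cfd and Pnpla3 stayed under 0.1 FPKM in all 6 libraries, and the summed level of 61.4 to 67.2 FPKM in KO and 58.8 to 66.2 FPKM in WT was almost all Lipe, which had 64.2 ± 2.88 FPKM in KO and 62.3 ± 4.11 FPKM in WT (SD, n = 3 each). Macrophages share Lpl, Cd36, Fabp4, Fabp5 and Pparg, and 6 of 10 macrophage markers rose, with sums of 227.7 to 352.4 FPKM in KO and 93.8 to 232.8 FPKM in WT. Platelets carry CD36, and 7 of 9 tested erythroid and platelet markers rose, with sums of 489.9 to 639.7 FPKM in KO and 299.2 to 402.5 FPKM in WT. Of all tested genes 18.3% rose. Most of these sums came from haemoglobin genes, Hbb-bs alone averaging 216.0 FPKM in KO and 150.7 FPKM in WT. Among the platelet genes Ppbp, Pf4 and Gp9 rose (log2 fold change 1.03, 1.19 and 0.49), and Itga2b did not (0.01, adjusted p = 0.947). With the length trend removed, 2 of the 9 erythroid and platelet markers, Ppbp and Gp9, passed as higher, beside 6.47% of all tested genes. Of the 10 macrophage markers 0 passed in that limma fit, 2 being higher at an unadjusted p under 0.05. Limma-voom without length removal called 6 of them higher, beside 22.4% of all tested genes. The median log2 fold change of the macrophage markers was 0.76 with genotype only and 0.45 with the length trend removed. That of the erythroid and platelet markers was 0.54 and 0.03. When centred as well, 1 macrophage marker passed as higher, and quantile normalization called 5 higher (median 0.86). Of all tested genes 9.42% were higher when centred as well and 20.4% under quantile normalization.

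Cardiomyocytes make lipoprotein lipase, and 2 of 10 tested cardiomyocyte markers rose and 1 fell, with sums of 240.7 to 284.5 FPKM in KO and 177.4 to 258.3 FPKM in WT. The shares of 20% and 10% stand beside 18.3% and 25.8% of all tested genes. The lower call was lost without the length trend, where 1 marker rose and the median was -0.14 in place of 0.20. It was also lost under quantile normalization, where 3 rose. Of all tested genes 6.47% rose without the length trend and 20.4% under quantile normalization. Fibroblast markers fell in 5 of 6 tested, with sums of 13.9 to 16.3 FPKM in KO and 23.9 to 27.6 FPKM in WT. Mural cell markers fell in 7 of 8, with sums of 238.0 to 370.6 FPKM in KO and 351.8 to 464.0 FPKM in WT. Lymphatic endothelial markers fell in 3 of 3 tested, with sums of 33.6 to 44.1 FPKM in KO and 61.3 to 72.6 FPKM in WT. Most of the lymphatic sum was Flt4, at 31.2 FPKM in KO and 47.0 FPKM in WT on average. With the length trend removed 5 of 6 fibroblast, 7 of 8 mural cell and 3 of 3 lymphatic markers still fell. Of all tested genes 10.6% fell in that fit, and 25.8% with genotype only. When centred as well, 4, 6 and 3 of these markers fell, beside 9.48% of all tested genes. The part of these cells in the differences of the members was not tested.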

How the data were processed

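Per-library FPKM values were deposited by the authors for 20893 genes. For 17686 genes the authors also deposited a comparison of KO with WT from DESeq2. It holds each group's normalized signal (BaseMean, per the file headers) and the fold change as a linear ratio. Its log2 column and its columns of p-value and q-value are also as the authors deposited them. The submitters' processing notes list DESeq2 1.22.1, featureCounts 1.6.2, HISAT2 2.1.0, fastp 0.19.3, GATK 4.0.11.0, Cufflinks, StringTie 1.3.4d and the mm10 build, and give neither their roles nor their order. Groups came from sample titles. Gene IDs were matched to RefSeq GRCm38.p6 for positions (20334 of 20893).

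Genes with at least 1 FPKM in at least 3 libraries entered limma 3.58.1 in R 4.3.3, with a variance trend on mean level and genotype as the only term, on log2(FPKM + 1), a scale that understates changes of low genes. Whole reads and implied transcript lengths were recovered from FPKM and the deposited group means (below 1000 reads, 100.0% of them lay within 0.05 of a whole number). The length trend was a spline (4 degrees of freedom) of each library's deviations on log2 length. The limma fit was tested on simulated data that held no trend with length. That test therefore cannot show how the fit behaves under the length trend of these libraries. Other settings were a pseudocount of 0.1, no filter, a filter at 5 FPKM, quantile and median-ratio scaling, leaving out each library, blocking on the replicate number, and limma-voom on recovered reads. The remaining steps ran in Python 3.11.15 with scipy 1.17.1, pandas 2.3.3, matplotlib 3.10.9 and numpy 2.4.6.

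Members, lists and tests were chosen with earlier results of these data known. Named were all members, the 4 genes per wider list with the smallest p, and the gene outside the list most like each member. Of the genes this rule names, 2 are not reported here. There were 14 lists, 6 of fatty acid handling and 8 of cell type markers; 5 genes are in more than 1 of the 6.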

Additional observations from a re-analysis of the deposited data

How the results depend on the processing

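Lpl passed as lower and Pparg as higher in every setting tried, as did Slc27a3 wherever it was tested. The number of members higher in KO was 6, against 3 with quantile normalization (and 2 lower, Cd36 being added) and 2 with the length trend removed, also when each library was then centred on the median gene (chosen after seeing the data) or the replicate number was added as a block. With 1 library left out it ranged from 5 to 7 and the number lower was 1. The wider genes higher in KO numbered 8, against 5 without a filter, 14 with median-ratio scaling and 13 with limma-voom. Of the calls among all tested genes 41.5% were higher, against 37.4% without a filter, 50.3% with median-ratio scaling and 47.3% with limma-voom. The wider genes higher in KO numbered 4 with the length trend removed and 0 with the replicate block added to that. With 1 library left out they numbered 5 to 9 (5 without KO replicate 2, KO replicate 4 or WT replicate 4). The wider genes lower in KO numbered 21, against 12 with the length trend removed, 12 when centred as well and 8 with the block added, and 17 to 22 with 1 library left out. Of all tested genes 1982 were higher and 2790 lower, against 699 and 1147 with the length trend removed, 1018 and 1024 when centred as well and 247 and 518 with the block added, and 1411 to 1998 higher and 1981 to 2681 lower with 1 library left out.

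The same-numbered libraries did not deviate together (correlations of -0.195, -0.349 and -0.222 for numbers 2, 3 and 4) and the labels do not say what a number shares, so no pairing was assumed. With the replicate block alone 5 members were higher, Aqp7 being lost (adjusted p = 0.1), 1 was lower, and 1542 of all tested genes were higher and 2207 lower.

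The difference in the log2 ratio of Lpl to Gpihbp1 was -0.948 with quantile normalization, -0.814 with the length trend removed and -1.465 to -1.219 with 1 library left out. That of Lpl to Cd36 was -0.517 with quantile normalization. That of Fabp5 to Fabp4 was 0.079 with quantile normalization and -0.151 to 0.001 with 1 library left out. Signs turned for uncalled genes: Cd36 had -0.420 with quantile normalization and -0.038 to 0.057 with 1 library left out. Meox2 had -0.113 with quantile normalization, -0.139 with the length trend removed (the same with the block), -0.103 when centred as well and -0.034 to 0.040 with 1 library left out. Tcf15 had -0.043 with the length trend removed (the same with the block) and -0.007 when centred as well, and Slc25a20 -0.031 with it removed (the same with the block). The cause of these changes was not tested. Without a filter Fabp4, Aqp7, Lipa, Lrp1, Zdhhc5, Plin2, Acaa2, Gpam and Agpat2 lost their calls, and G0s2 lost its call with limma-voom (adjusted p = 0.0515).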

Other observations

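Between Fabp5 and Fabp4 on chromosome 3 lie 187732 bp, with 2 further binding protein genes that have FPKM values. Pmp2, the gene of the myelin fatty acid binding protein, had 0, 0.0197 and 0.0814 FPKM in KO replicates 2, 3 and 4 and 0, 0.131 and 0.0186 FPKM in WT replicates 2, 3 and 4. Fabp9, a testis gene, had 0, 0.125 and 0 FPKM in KO replicates 2, 3 and 4 and 0.0382, 0.119 and 0.0392 FPKM in WT replicates 2, 3 and 4. The abundant genes at both ends of this interval thus enclose 2 measured neighbours that were close to 0. RefSeq also places the lncRNA gene Gm33365 and the pseudogene Gm9833 there, which have no FPKM values. Fabp3, the heart-type binding protein gene of cardiomyocytes, had 39.2, 32.0 and 38.3 FPKM in KO replicates 2, 3 and 4 and 22.5, 41.7 and 32.1 FPKM in WT replicates 2, 3 and 4, and did not pass the test (adjusted p = 0.357).

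The deposited annotation puts 6 of the members (Cd36, Fabp4, Fabp5, Lpl, Pparg and Aqp7) among its 68 genes of the KEGG PPAR signalling pathway, a list looked up after the values were seen. Of the other 62, 37 were tested, of which 4 rose and 8 fell, with a median log2 fold change of 0.00. These are 10.8% and 21.6%, beside 18.3% and 25.8% of all tested genes. With the length trend removed 4 fell, or 10.8%, beside 10.6% of all tested genes, and the higher calls were lost.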
